A study of Mus musculus with 8 samples.

Results

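The glomerular filter of the kidney is closed by podocytes, epithelial cells whose interlocking foot processes are joined by a thin protein sheet, the slit diaphragm. Nephrin and its partners span the slit, adaptor proteins tie them to the actin bundles of the foot process, and a negatively charged coat covers the free surface. Loss of several of these proteins causes leakage of protein into the urine. Here 8 genes of this structure were followed in the kidneys of NEKO mice: the slit membrane protein nephrin (Nphs1), its adaptors Cd2ap and Magi2, the apical surface proteins Podxl and Ptpro, the actin-associated proteins Synpo and Actn4, and the podocyte transcription factor Wt1. The genes were taken as a list by name, and all 8 could be measured, as 8 of 19593 genes and unnamed transcripts that entered the test (13570 of these carry a gene name). No difference between NEKO and control mice passed the test for any of the 8 genes.

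Total kidney RNA of 8 mice aged 8 weeks, 1 Agilent array per mouse with a single dye (Cy3), was compared between 4 NEKO mice and 4 littermate controls, each group with 2 females and 2 males. NEKO mice are Keap1-/-, so that Nrf2, the transcription factor that Keap1 holds down, is active in most of their tissues. They also carry Nrf2Flox/Flox and K5-Cre, which together remove Nrf2 in squamous epithelium, where the Keratin5 promoter drives Cre. In their kidneys the paper reports strong staining for NQO1, the product of an Nrf2 target, in collecting ducts and cortical tubules, and not in glomeruli. All controls were Keap1+/- and Nrf2Flox/Flox, so Nrf2Flox/Flox is common to every mouse. Of the controls, 3 carried K5-Cre (K1Cre) and 1, the female control replicate 1, did not (K1). The background was mixed, from 129Sv/J and C57BL/6J. Replicate numbers run from 1 to 8 over both groups: controls are replicates 1 and 8 (females) and 4 and 7 (males), NEKO mice are replicates 2 and 3 (females) and 5 and 6 (males). Slide 2 carried only females and slide 1 only males, which means that a sex difference and a slide difference are the same contrast here. On each slide the controls held positions 1 and 2 and the NEKO mice positions 3 and 4, and position and genotype cannot be told apart.

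Levels are log2 signals less the array's 75th percentile of all non-control probes. A level can be compared between mice but not between genes, since each gene has its own probe. The share of probes above background ran from 61.7% to 65.7% over the arrays, and no spot was saturated. Umod, a marker of the thick ascending limb, and Kap, a marker of the proximal tubule, had control means of 7.81 ± 0.13 and 7.81 ± 0.19 (SD, n = 4) and NEKO means of 7.54 ± 0.27 and 7.78 ± 0.31, so both groups carried these kidney transcripts. Keap1 read 1.76, 1.88, 1.83 and 1.72 in control replicates 1, 4, 7 and 8, and 0.42, 0.03, 0.10 and 0.12 in NEKO replicates 2, 3, 5 and 6. The groups did not overlap, and the difference was -1.63 (SE 0.10, limma adjusted p = 0.00487). Of 11 tested Nrf2 targets, 1 (Txnrd1, 1.30, SE 0.17, limma adjusted p = 0.0492) passed the test, where 0.225% of all genes did, and the median difference of these targets was 1.05. An unadjusted p under 0.05 was found for 9 of the 11, all higher in NEKO mice, against 17.8% of all genes, and the groups did not overlap for 6 of them, against 9.24% of all genes. RNA of the whole kidney was measured, in which fewer podocytes and less RNA per podocyte cannot be told apart.

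RefSeq promoter windows of GRCm38.p6, from 250 bases before to 50 bases after the start of transcription, were on hand for 5 of the genes. They are shown because Nrf2, which NEKO mice activate, and WT1, one of the 8 proteins, both bind promoters. The antioxidant response element core (TGACNNNGC, on either strand), the site of Nrf2 with its small MAF partner, was found in 12.4% of all 32851 promoters. Among the 6 promoters of the 5 genes only that of Cd2ap held it, once, at position -152 counted from the start site to the first letter. Of 10 Nrf2 targets with a promoter, 5 had such a match, in 5 of their 13 promoters. The sequences below are printed 5′ to 3′ along the gene. The first sequence is the Cd2ap promoter, chr17:42876375-42876674 on the minus strand, with the match in capitals, and the second is the one of 3 Txnrd1 promoters that has a match, chr10:82858956-82859255 on the plus strand, shown as the target that passed the test.
Cd2ap: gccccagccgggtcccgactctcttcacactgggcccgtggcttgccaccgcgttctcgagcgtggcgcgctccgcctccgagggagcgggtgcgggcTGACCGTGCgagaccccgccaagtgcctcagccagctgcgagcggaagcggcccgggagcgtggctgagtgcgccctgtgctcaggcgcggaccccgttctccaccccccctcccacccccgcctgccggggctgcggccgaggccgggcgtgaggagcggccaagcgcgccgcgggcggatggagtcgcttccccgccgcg
Txnrd1: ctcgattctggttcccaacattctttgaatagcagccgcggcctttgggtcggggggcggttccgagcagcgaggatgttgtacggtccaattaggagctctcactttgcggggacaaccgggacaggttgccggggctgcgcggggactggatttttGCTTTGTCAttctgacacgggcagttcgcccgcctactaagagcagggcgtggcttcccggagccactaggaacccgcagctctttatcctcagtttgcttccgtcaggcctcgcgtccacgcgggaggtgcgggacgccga
A GC-rich letter pattern of the kind that WT1 and the EGR factors bind (GNGGGNGNG, on either strand) was present in all 6 promoters of the 5 genes, and in 43.8% of all promoters. Of the 10 Nrf2 targets with a promoter, 7 had such a match, in 8 of their 13 promoters. In Nphs1 (chr7:30459808-30460107, plus strand) the matches, in capitals, include an overlapping run, and in Ptpro (chr6:137252049-137252348, plus strand) they all lie in a run of G. Nphs1 is shown as a known target of WT1, and Ptpro as a gene whose levels ran close to those of Nphs1 from mouse to mouse.
Nphs1: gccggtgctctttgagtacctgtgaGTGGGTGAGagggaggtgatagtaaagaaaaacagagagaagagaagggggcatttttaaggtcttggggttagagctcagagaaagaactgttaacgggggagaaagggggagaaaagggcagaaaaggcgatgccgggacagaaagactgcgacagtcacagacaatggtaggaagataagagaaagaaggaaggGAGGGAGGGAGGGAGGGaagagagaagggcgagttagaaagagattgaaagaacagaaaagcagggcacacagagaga
Ptpro: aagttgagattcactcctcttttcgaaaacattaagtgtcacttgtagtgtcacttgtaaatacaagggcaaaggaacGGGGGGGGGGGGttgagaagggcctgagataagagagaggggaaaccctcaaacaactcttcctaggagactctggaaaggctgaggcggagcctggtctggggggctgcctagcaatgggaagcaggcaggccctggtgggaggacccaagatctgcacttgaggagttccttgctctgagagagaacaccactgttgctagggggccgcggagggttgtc
The 2 letter patterns did not overlap in these promoters. A match describes letters and was not tested as a binding site.

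Nphs1, which encodes nephrin, the protein that bridges neighbouring foot processes, read -0.24, -1.04, -1.30 and -1.16 in control replicates 1, 4, 7 and 8, and -0.45, -0.05, -0.70 and -1.13 in NEKO replicates 2, 3, 5 and 6. The groups overlapped, since control replicate 1 stood above 3 of the NEKO mice, and NEKO replicate 6 lay among the other controls. The difference was 0.35 (SE 0.22, 95% interval -0.17 to 0.88, limma adjusted p = 0.43), or 1.28-fold with an interval from 0.888 to 1.83. It had the same sign in females (0.45) and in males (0.25). Among all genes tested, 0.225% passed the adjusted threshold of 0.05 in either direction and 17.8% had an unadjusted p under 0.05. Of the 8 slit diaphragm genes, 0 passed the adjusted threshold in limma, and 1 (Synpo) had an unadjusted limma p under 0.05. With adjustment the methods' unpaired comparison called 0 of all 19593 genes, so its 0 of these 8 adds nothing. The methods' unpaired comparison without adjustment also called 0 of the 8, and 11.2% of all genes.

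**Figure D1:**
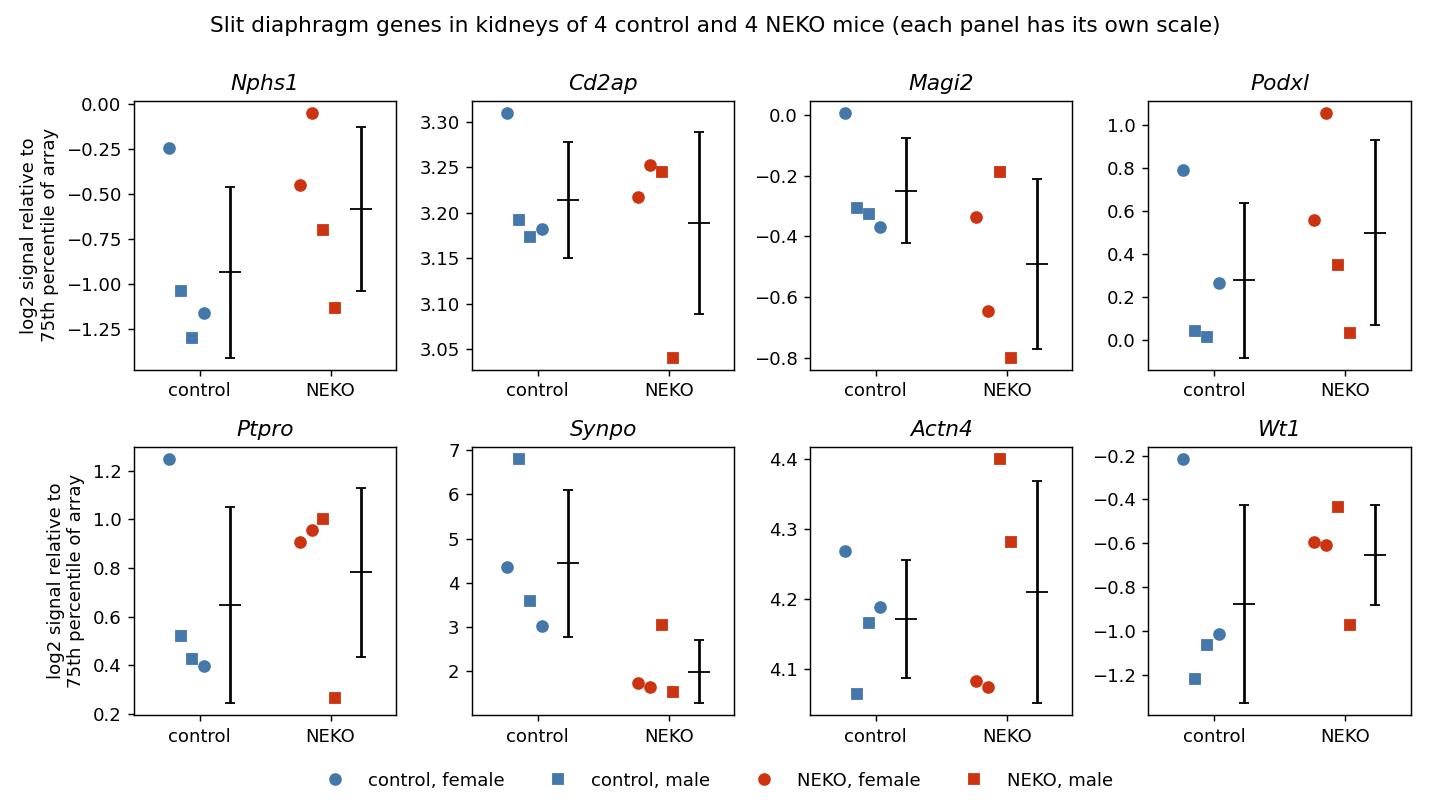
Levels of the 8 slit diaphragm genes in each mouse, as log2 signal less the array's 75th percentile, with a separate scale for each gene. Points are mice (circles females, squares males), and bars are the mean ± SD of 4 mice. In every panel the control and NEKO points overlap, and for Synpo the overlap is 1 mouse of each group, at 3.05 and 3.01.

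Cd2ap, the adaptor that links the nephrin tail to actin and to cell survival signals, had the narrowest spread of the 8 genes, 1.20-fold over the 8 mice. It read 3.31, 3.19, 3.17 and 3.18 in controls 1, 4, 7 and 8 and 3.22, 3.25, 3.24 and 3.04 in NEKO mice 2, 3, 5 and 6. NEKO mouse 6 was lowest and control 1 highest, and the remaining 6 mice lay within a narrow band. The difference was -0.03 (SE 0.08, interval -0.20 to 0.15, limma adjusted p = 0.88), or 0.982-fold with an interval from 0.868 to 1.11. A dimmer probe for the same transcript gave -0.25, -0.31, -0.29 and -0.29 in controls and -0.01, -0.10, -0.12 and -0.13 in NEKO mice, without overlap. Its difference was 0.19 (SE 0.06, interval 0.04 to 0.35), and its limma adjusted p over 26026 probes was 0.22. The signs of both Cd2ap probes differed, and neither passed the test.

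Magi2, a scaffold of the slit diaphragm with several PDZ domains that binds nephrin, was the one member apart from Synpo and Cd2ap whose fitted difference was below 0. Its levels were 0.01, -0.31, -0.32 and -0.37 in controls 1, 4, 7 and 8 and -0.34, -0.64, -0.19 and -0.80 in NEKO mice 2, 3, 5 and 6. The lowest pair of mice were NEKO, one of each sex, and the highest was control 1. The difference of -0.24 (SE 0.16, interval -0.62 to 0.14, limma adjusted p = 0.45) did not pass the test. It was below 0 in females (-0.31) and in males (-0.18).

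A known partner of nephrin was read in the same way. Kirrel, the nephrin-like protein that pairs with nephrin in the slit, read -0.13, -0.89, -0.88 and -0.38 in controls 1, 4, 7 and 8 and -0.23, -0.30, 0.07 and -0.00 in NEKO mice 2, 3, 5 and 6. NEKO mice held the highest pair of values, both males, and the groups overlapped. The difference was 0.46 (SE 0.19, interval 0.0036 to 0.91, unadjusted p = 0.0486, adjusted p = 0.28). It was 0.92 in males and -0.01 in females, and the interaction of sex and genotype had an unadjusted p of 0.00138 and an adjusted p of 0.14. Other Kirrel probes, for another transcript, were above background on 0 arrays.

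Podxl, the sialic acid-rich protein of the negatively charged podocyte coat, which is also made by endothelial cells, read 0.79, 0.04, 0.01 and 0.27 in controls 1, 4, 7 and 8 and 0.56, 1.06, 0.35 and 0.03 in NEKO mice 2, 3, 5 and 6. Females held the highest values in both groups, and the NEKO mice covered the whole control range but for its lower end. The difference was 0.22 (SE 0.16, interval -0.16 to 0.60, adjusted p = 0.49). A dimmer Podxl probe gave a difference of -0.23 (SE 0.24), so the sign was not shared between the probes.

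Ptpro, the receptor tyrosine phosphatase of the apical podocyte surface, read 1.25, 0.52, 0.43 and 0.40 in controls 1, 4, 7 and 8. In NEKO mice 2, 3, 5 and 6 it read 0.91, 0.96, 1.00 and 0.27. In each group 1 mouse stood apart from the rest, as control 1 was the highest of all 8 and NEKO mouse 6 the lowest. The fitted difference was 0.13 (SE 0.22, interval -0.39 to 0.66, adjusted p = 0.77). A dimmer Ptpro probe, above background on 4 arrays, gave 0.37 (SE 0.26).

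Synpo encodes synaptopodin, which bundles actin in the foot process, and its probes gave unlike differences. Its brightest probe read 4.35, 6.81, 3.58 and 3.01 in controls 1, 4, 7 and 8, and 1.74, 1.63, 3.05 and 1.54 in NEKO mice 2, 3, 5 and 6. The lowest control and the highest NEKO mouse crossed by a small margin, and the 8 mice spanned a 38.6-fold range. The difference was -2.45, the largest of the 8 genes when Synpo is read from this probe (SE 0.74, interval -4.19 to -0.71, unadjusted p = 0.0127), which did not pass the adjusted threshold (limma adjusted p = 0.18), and the exact two-sided permutation test gave p = 0.0571, where 4 against 4 mice can reach 0.0286 at the lowest. It was of the same sign in females (-2.00) and males (-2.90), and leaving out single mice moved it between -3.00 and -1.71 (adjusted p from 0.19 to 0.36).

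A second Synpo probe for the same transcript (NM_177340) had a difference of the other sign. It read 1.33, 0.59, 0.58 and 0.78 in controls 1, 4, 7 and 8 and 1.09, 1.25, 1.23 and 0.95 in NEKO mice 2, 3, 5 and 6, with control 1 highest and every NEKO mouse above the 3 K1Cre controls. Its difference was 0.31 (SE 0.15, interval -0.05 to 0.67, adjusted p = 0.34), and the 8 mice spanned 1.69-fold. The brightest probe kept its negative difference, between -2.45 and -2.41, and the second its positive one, between 0.31 and 0.34, under each of 4 ways of scaling the arrays. One more Synpo probe, for the transcript NM_001109975, was above background on 0 arrays. The data give no direction for Synpo as a gene.

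**Figure D2:**
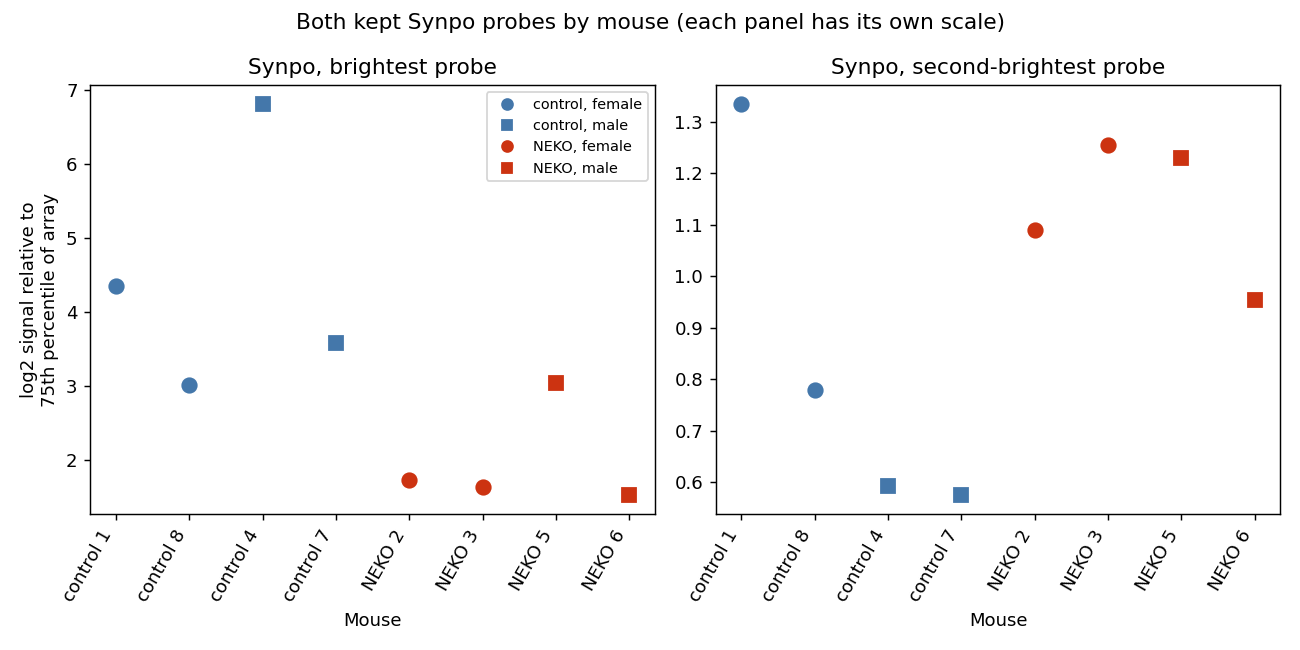
Level of both kept Synpo probes in each mouse, as log2 signal less the array's 75th percentile, with a separate scale for each probe. The brightest probe is highest in control replicate 4 at 6.81 and low in 3 of 4 NEKO mice, whereas the second probe is highest in control replicate 1 at 1.33 and lowest in control replicates 4 and 7.

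The brightest Synpo probe varied far more over the mice than the Nphs1 probe, 38.6-fold against 2.37-fold. Among 19592 genes ranked by the unscaled distance of their centred levels from Nphs1, it came at 19509. A range this wide gives a low rank whatever its shape. The genes nearest to this Synpo probe, looked up after its values were seen, are not known as podocyte genes. Gm11938 lay at a root mean square distance of 0.16 and Grin2d, a glutamate receptor subunit of neurons, at 0.26, both on the log2 scale. Gm11938 read 3.62, 6.00, 3.03 and 2.56 in controls 1, 4, 7 and 8 and 1.40, 1.16, 2.67 and 1.20 in NEKO mice 2, 3, 5 and 6. Controls 4 and 1, the highest for the probe, also had the most spots marked as outliers, 172 and 162, against 73 to 112 on the other arrays. Marked spots were dropped before averaging, so none of them enters the Synpo values. A link between these counts and the Synpo values was not tested.

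Actn4 encodes the alpha-actinin that crosslinks actin in foot processes and is present in many other kidney cells. It read 4.27, 4.06, 4.17 and 4.19 in controls 1, 4, 7 and 8 and 4.08, 4.08, 4.40 and 4.28 in NEKO mice 2, 3, 5 and 6. The female NEKO mice were below both female controls and the male NEKO mice above both male controls. The pooled difference was 0.04 (SE 0.10, interval -0.19 to 0.27, adjusted p = 0.85), made up of -0.15 in females and 0.23 in males. In the model with an interaction these differed by 0.37 (SE 0.15), with an unadjusted limma p of 0.0408 and an adjusted p of 0.44. Among all genes 10.5% had an unadjusted interaction p under 0.05 and 0.0153% an adjusted one, and of the 8 slit diaphragm genes 1 (Actn4) and 0 did.

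Wt1 encodes the zinc finger protein that podocytes keep into adult life and that activates Nphs1 and Podxl. It read -0.21, -1.22, -1.06 and -1.02 in controls 1, 4, 7 and 8 and -0.60, -0.61, -0.43 and -0.97 in NEKO mice 2, 3, 5 and 6. Every NEKO mouse lay above the 3 K1Cre controls and below the K1 control. The difference was 0.23 (SE 0.21, interval -0.27 to 0.72, adjusted p = 0.59), with 0.01 in females and 0.44 in males.

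**Figure D3:**
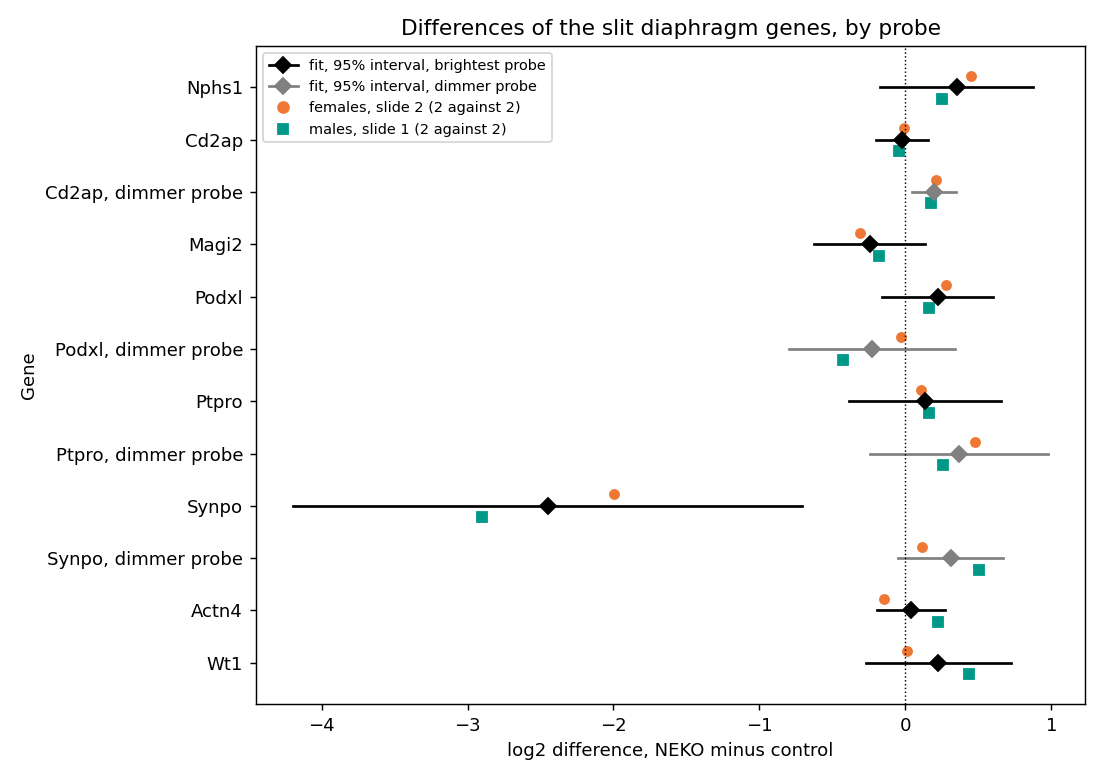
Log2 difference of NEKO minus control for each slit diaphragm gene from its brightest probe (black) and, where kept, a dimmer probe (grey). Lines are 95% intervals of the limma fit, and the circles and squares are the differences within females (slide 2) and males (slide 1), each of 2 against 2 mice. The brightest Synpo probe, at -2.45, is the one wide interval far from 0, and its dimmer probe lies at 0.31.

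The median difference over the 8 genes was 0.09, against -0.03 over all genes tested. Of the 8 differences 5 were above 0. With Synpo read from its second probe the median was 0.18, and 6 of the 8 were above 0. With the brightest probe of each gene, in no gene did the 4 NEKO mice lie all above or all below the 4 controls. Among all genes 3.95% lay wholly above and 5.29% wholly below.

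Single mice set much of the spread, and the differences moved both ways when one was left out. Control 1, the K1 female and the one mouse without Cre, was the highest control for Nphs1, Cd2ap, Magi2, Podxl, Ptpro, Actn4 and Wt1. Without it, which leaves 1 female control, the Nphs1 difference was 0.51 (SE 0.21, unadjusted p = 0.0466, adjusted p = 0.32) and that of Ptpro 0.31 (adjusted p = 0.49). Wt1 then differed by 0.43 (SE 0.14, unadjusted p = 0.0247, adjusted p = 0.26) and its groups no longer overlapped. The same was true of the second Synpo probe, at 0.46 (adjusted p = 0.17). The median over the 8 genes became 0.20, and 0 of the 8 passed the adjusted threshold. Leaving out others lowered the differences. Without control 8, the other female control, Nphs1 differed by 0.15 (adjusted p = 0.66), Podxl by 0.10 (adjusted p = 0.74) and Wt1 by 0.11 (adjusted p = 0.82). Without NEKO mouse 3 the Podxl difference was 0.11, and without NEKO mouse 5 that of Wt1 was 0.075 (adjusted p = 0.87). The Magi2 difference was -0.38 without NEKO mouse 5 and -0.13 without NEKO mouse 6. With 1 mouse that had no Cre, the absence of Cre and the individual mouse cannot be told apart.

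Several of the genes varied together from mouse to mouse. After centring each gene on its mean over the 8 mice, Podxl lay at a root mean square distance of 0.14 from Nphs1 on the log2 scale, rank 5 of 19592. Ptpro ranked 29 (0.21), and Wt1 lay farther off, at 0.26. Of the other podocyte genes, Ddn (dendrin, a nephrin-binding protein) ranked 10, and Pdpn (podoplanin, a surface protein of podocytes) 17. By contrast Cd2ap ranked 2559, Magi2 7897 and Actn4 8208. The genes ahead of Podxl were Cwc25 (0.10), Rarres1 (0.12), an unnamed transcript (0.13) and Tspan2 (0.14). The distance is not scaled to each gene's spread, so a gene that varies little, such as Cd2ap, cannot lie close to Nphs1. These distances describe 8 points that share arrays and slides, and no test was made of them.

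**Figure D4:**
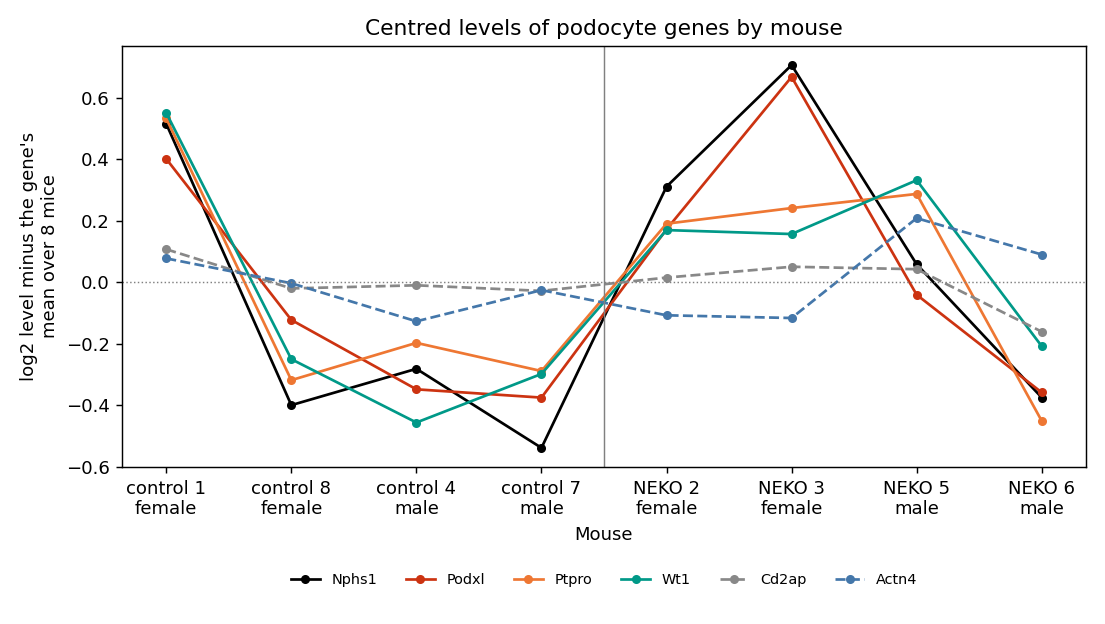
Level of each gene in each mouse minus that gene's mean over the 8 mice, on the log2 scale, with controls on the left and NEKO mice on the right. Nphs1, Podxl, Ptpro and Wt1 are together high in control replicate 1 and low in the other controls, while the Cd2ap and Actn4 lines stay nearer to 0.

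Genes of other glomerular cells were set beside these. Of 9 glomerular endothelial markers 0 passed the test and 1 had an unadjusted p under 0.05, or 11.1% against 17.8% of all genes, with a median difference of 0.14. All 9 passed the filter on dim probes, and the mean centred level of the list ran from -0.29 to 0.16 in controls and from -0.10 to 0.23 in NEKO mice. Emcn, the endothelial sialomucin, had a mean of 4.04 ± 0.06 in NEKO mice and 4.08 ± 0.11 in controls (SD, n = 4). The 7 mesangial markers had a median difference of 0.23, with 0 passing the test and 2 (Itga8 and Pdgfrb, both higher) at an unadjusted p under 0.05, and their mean centred level ran from -0.39 to 0.01 in controls and from -0.17 to 0.42 in NEKO mice. These 2 were 28.6% of the list, against 17.8% of all genes. Itga8 differed by 1.25 in males and 0.14 in females, and Pdgfrb by 0.86 and 0.10. Of 5 parietal epithelial markers 0 passed, 1 (Scin, lower) had an unadjusted p under 0.05, or 20% against 17.8% of all genes, and the median was -0.07. The part of the number of glomeruli in the samples was not tested.

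The wider podocyte programme was read from 5 lists with 80 genes, of which 76 were named on the array and 69 tested. With adjustment the methods' unpaired comparison called 0 of these 69 genes and 0 of all 19593. In limma 0 of the 69 passed the adjusted threshold, where 0.225% of all genes did. At an unadjusted p under 0.05 there were 13 higher and 3 lower in NEKO mice, or 23.2% against 17.8% of all genes. The groups did not overlap for 7 higher and 1 lower gene, or 11.6% against 9.24% of all genes. The median difference was 0.11, and single genes ran from -2.00 to 1.07.

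Of 16 slit diaphragm partners and signalling proteins, 2 (12.5%, against 17.8% of all genes) had an unadjusted p under 0.05, both higher. These were Kirrel and Tjp1, the tight junction scaffold ZO-1 found at the slit (0.26, SE 0.07, adjusted p = 0.17). The median of this list was -0.02. Of 12 genes for the foot process cytoskeleton, 3 were higher at an unadjusted p under 0.05, or 25% against 17.8% of all genes. The groups did not overlap for 2, or 16.7% against 9.24% of all genes. Inf2, an actin-regulating formin, read 0.12, -1.25, -0.37 and -0.15 in controls 1, 4, 7 and 8 and 0.21, 0.22, 0.52 and 0.74 in NEKO mice 2, 3, 5 and 6. The difference was 0.83 (SE 0.29, adjusted p = 0.22), and 0.54 (adjusted p = 0.31) without control 4, its lowest mouse. It was 1.44 in males and 0.23 in females, and that gap had an adjusted interaction p of 0.35. Myh9, the heavy chain of nonmuscle myosin IIA, differed by 0.37 (SE 0.11, adjusted p = 0.18), also without overlap, and the intermediate filament gene Vim by 0.66 (SE 0.22, adjusted p = 0.20). The Vim difference was 1.14 in males and 0.18 in females.

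Of 10 transcription factors and cell cycle inhibitors of podocytes, 3 were higher at an unadjusted p under 0.05, or 30% against 17.8% of all genes. The groups of 2 of these did not overlap, or 20% of the list against 9.24% of all genes. Tcf21, which is needed for podocyte maturation and is also present in stromal cells, read 0.12, -0.14, -0.08 and 0.52 in controls and 0.82, 0.58, 0.83 and 1.21 in NEKO mice. All NEKO mice were above all controls, and the difference was 0.76 (SE 0.19, adjusted p = 0.14). It was 1.13 in males and 0.38 in females, with a limma interaction p of 0.0329 unadjusted and 0.41 adjusted. Foxc2, a forkhead factor of podocyte development, differed by 0.35 (SE 0.11, adjusted p = 0.18). Its relative Foxc1, whose groups overlapped, differed by 0.29 (SE 0.11, adjusted p = 0.23).

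Of 14 genes for adhesion to the basement membrane, 3 were higher and 1 lower at an unadjusted p under 0.05, or 28.6% against 17.8% of all genes. The groups did not overlap for 14.3% of the list, against 9.24% of all genes. Itga3 and Itgb1, the subunits of the integrin that holds podocytes to laminin, both had all 4 NEKO mice above all 4 controls. Itga3 read -0.70, -1.15, -1.16 and -0.83 in controls 1, 4, 7 and 8 and -0.39, -0.48, -0.60 and -0.67 in NEKO mice 2, 3, 5 and 6. Its difference was 0.42 (SE 0.08, interval 0.24 to 0.61), or 1.34-fold, and its adjusted p of 0.0752 was the lowest of the named podocyte genes. Over the alternatives with an adjusted p it lay between 0.0448, with a normexp background correction, and 0.40, under the methods' comparison. It was 0.15 with slide as a random block and 0.24 with no sex term. With the mean of its kept probes Itga3 differed by 0.20 (adjusted p = 0.29). Itgb1 differed by 0.33 (SE 0.08, adjusted p = 0.13). Npnt, an integrin ligand of the basement membrane, differed by -0.43 (SE 0.16, adjusted p = 0.23).

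Of 17 secreted and surface products, 2 were higher and 2 lower at an unadjusted p under 0.05, or 23.5% against 17.8% of all genes. The groups did not overlap for 11.8% of the list, against 9.24% of all genes. Cxcl12, the chemokine that podocytes and stromal cells release, read 2.83, 2.78, 3.31 and 3.27 in controls 1, 4, 7 and 8 and 4.01, 3.52, 4.47 and 4.47 in NEKO mice 2, 3, 5 and 6. The groups did not overlap. Their means differed by 0.72 in females and 1.43 in males, and the fitted difference was 1.07 (SE 0.22, adjusted p = 0.0954). Ptgds, the prostaglandin D synthase, read 0.38, 0.32, 0.22 and -0.09 in controls and -0.98, -0.70, -2.72 and -2.76 in NEKO mice. Every NEKO mouse was below every control, and the difference was -2.00 (SE 0.40, adjusted p = 0.0952). The males differed by -3.01 and the females by -0.98, with an adjusted interaction p of 0.0904.

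Several of these genes are made in other kidney cells too. Of 6 smooth muscle and fibroblast markers 0 passed the test and 0 had an unadjusted p under 0.05, the median was 0.36, and the mean centred level ran from -0.41 to 0.24 in controls and from -0.36 to 0.78 in NEKO mice. Of 5 urothelial markers 0 passed and 3 had an unadjusted p under 0.05, all higher, or 60% against 17.8% of all genes. Their median was 1.29, a larger shift than that of any podocyte list, and the mean centred level ran from -1.28 to 0.12 in controls and from -0.12 to 1.13 in NEKO mice. Much of the shift lay in males, which are also slide 1. Upk1b differed by 2.52 in males and 0.07 in females, Upk2 by 3.24 and 0.36, and Upk3a by 2.12 and -0.28. Krt5 differed by 2.65 in males and 1.05 in females, and Upk1a by -0.21 and -1.21. The groups did not overlap for Krt5, a keratin of basal epithelial cells, which differed by 1.85, nor for Upk1a, a urothelial plaque protein, which differed by -0.71. The medians were -0.0013 for 8 proximal tubule markers, -0.25 for 8 distal nephron markers, 0.12 for 6 macrophage markers and 0.10 for 5 lymphocyte markers, with 0 genes passing the test in each and 2, 2, 1 and 1 genes at an unadjusted p under 0.05. These counts were 25%, 25%, 16.7% and 20% of the lists, against 17.8% of all genes. The part of such cells in the differences of Tcf21, Cxcl12, Inf2 and Vim was not tested.

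**Figure D5:**
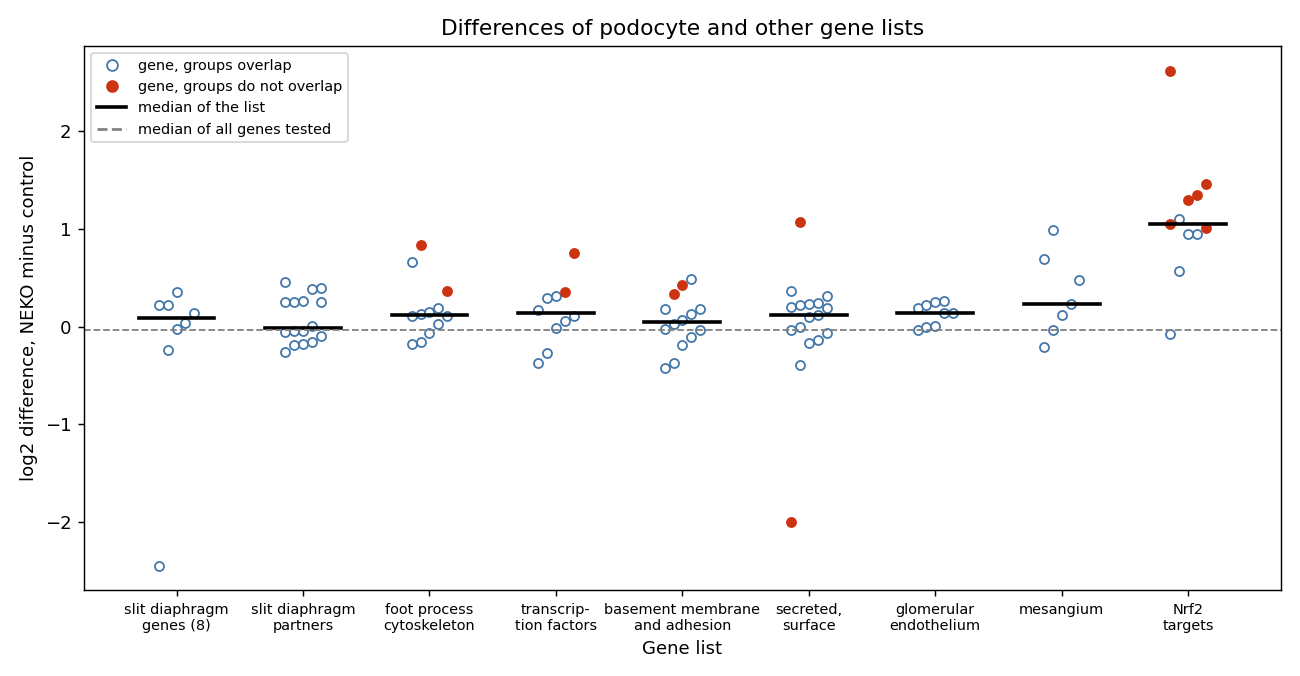
Log2 difference of NEKO minus control for each tested gene of the 8 slit diaphragm genes, the 5 other podocyte lists, 2 lists of neighbouring glomerular cells and the Nrf2 targets. Filled points are genes whose 4 NEKO and 4 control values do not overlap, thick lines are list medians and the dashed line is the median of all genes tested, -0.03. The podocyte lists centre near 0, between -0.02 and 0.14, with Ptgds at -2.00 and the brightest Synpo probe at -2.45 far below, and the Nrf2 targets centre at 1.05.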

How the data were processed

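The authors deposited Agilent Feature Extraction output (version 10.7.3.1 per the file headers) for each array, with a background-subtracted intensity per spot, and a table of log2 values. After each probe's mean over arrays was removed from both, 100% of those values lay within 0.02 of the recomputed scaled log2 intensities. How the deposited values were centred was not checked. The array normalization is not given in the sources used here. Spots marked as outliers were dropped, spots of a probe averaged, and log2 signals scaled to the 75th percentile. Probes had to be above background on at least 4 of 8 arrays, with a value on at least 6, and the brightest kept probe stood for its gene. Of 41174 probes 26690 matched a RefSeq symbol by accession. The 8 genes had 13 probes, of which 12 were kept.

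limma 3.58.1 in R 4.3.3 (lmFit and eBayes, with sex as covariate) tested NEKO against control, adjusted by Benjamini-Hochberg over all 19593 genes, and called an adjusted p under 0.05. A second fit had the interaction of sex and genotype. The procedure was tested on simulated data. Replicates are separate mice, and their number limits the precision.

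The members and lists were chosen with earlier results of these data known. Genes named are the 8 members, Keap1, Kirrel, the 5 podocyte genes per direction with the largest difference and no overlap, the 5 closest to Nphs1, and the gene with the brightest probe in marker lists. Tjp1, Vim, Foxc1, Foxc2, Itgb1, Npnt, Ddn, Pdpn, Txnrd1, Gm11938, Grin2d, Itga8, Scin, Krt5 and Upk1a were named after their values were seen. 1 gene that the rule names is not reported here. Of the listed podocyte genes, Kirrel2, Kirrel3, Trpc6, Lmx1b, Plekhh2, Nebl and Anln had no kept probe, and Fyn, Palld, Lamc1 and Sema3g no named one.

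Alternatives were normexp (offset 50), quantile normalization, scaling to the median of probes detected on all arrays, other filters, the mean of kept probes, no sex term, slide as a random block, a trended robust variance, array weights, the deposited table, the methods' unpaired comparison, and leaving out each mouse. Reading Synpo from its second probe was added after seeing the data.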

Additional observations from a re-analysis of the deposited data

Results flagged for a closer look

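In 36 groups of 4 mice, the gap between the farthest mouse and its nearest neighbour was set against the whole range of the group. Chance alone marks about 1 in 20 such groups. The groups share the same arrays and are not independent, so their count cannot be set against that rate. In all, 6 stood out. All lay in 4 of the slit diaphragm genes. Control replicate 1, the K1 female without Cre, was far above the other controls for Cd2ap (gap 0.8656 of the range, 3.31 against 3.17 to 3.19), Magi2 (0.8324, 0.01 against -0.37 to -0.31) and Ptpro (0.8575, 1.25 against 0.40 to 0.52). NEKO replicate 6, a male, was far below the other NEKO mice for Cd2ap (0.8337, 3.04 against 3.22 to 3.25) and for Ptpro (0.8688, 0.27 against 0.91 to 1.00). For the brightest Synpo probe NEKO replicate 5 was far above the other NEKO mice (0.8657, 3.05 against 1.54 to 1.74).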

How the results depend on the processing

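Of the 8 slit diaphragm genes, 0 passed the adjusted threshold under every alternative run, and their median difference stayed within the spread between mice (0.28), from -0.02 without NEKO replicate 5 to 0.20 without control replicate 1. Of the other podocyte genes, 1 (Itga3) passed with normexp and 9 of 69 under the methods' comparison without adjustment, which called 11.2% of all genes, against 0 in the limma fit. The number of genes with an interaction of sex and genotype, 3 in the limma fit, was 21 with normexp, 0 with quantile normalization, 1 with no filter on dim probes and 5 with detection on all 8 arrays. With the mean of kept probes the sign turned for Cd2ap (0.085) and Podxl (-0.0042), and with its second probe Synpo differed by 0.31 and the median over the 8 genes was 0.18. Leaving out each mouse gave 0.15 to 0.51 for Nphs1, 0.10 to 0.31 for Podxl, 0.075 to 0.43 for Wt1, -0.38 to -0.13 for Magi2, 0.54 to 1.01 for Inf2, -0.063 to 0.018 for Cd2ap, -0.030 to 0.31 for Ptpro and -0.023 to 0.092 for Actn4. The sign turned for Cd2ap without NEKO replicate 6, for Ptpro without NEKO replicate 5 or control replicate 8, and for Actn4 without NEKO replicate 5 or control replicate 4. The cause was not tested. In all, 343 of 358 comparisons over 17 named genes kept their sign and their side of the threshold. Several settings, such as no sex term or slide as a random block, left the differences themselves unchanged. Of the 17 genes only Keap1 was called in the limma fit, so this count is not a measure of robustness. Keap1 was called in 19 of 20 settings, with an adjusted p of 0.15 under the methods' comparison with adjustment, which called 0 of all 19593 genes. No paired analysis was possible because the groups share no replicate number.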
